A study of Mus musculus with 8 samples.

Results

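The 10 genes described here encode proteins that copy DNA at the replication fork: Pola1, Pola2 and Prim1 of the polymerase alpha-primase complex, Pold1 and Pole of the 2 polymerases that extend its primers, the sliding clamp Pcna and the clamp loader subunit Rfc3, the flap nuclease Fen1, the ligase Lig1 and the helicase cofactor Gins1. Members were taken by symbol: 18 probe sets of the array carried exactly 1 of these symbols, and each gene was read from its brightest probe set. They are 10 of 18193 genes in the table. All 10 were among the 10916 genes tested, since their mean log2 signal over all 8 arrays lay above the filter on low signal.

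RNA came from NS5 cells, a mouse neural stem cell line that the labels place in the brain of the E11.5 embryo, hybridised to 8 Affymetrix arrays. Before treatment the cells were plated for 24 h with EGF and FGF2 and then held for 4 h with no growth factor. The 4 groups of 2 arrays were then treated for 48 h with ethanol and FGF2, with FGF2, with ethanol and TGF-beta1, or with TGF-beta1, where ethanol was at 400 mg/dl and each growth factor at 10 ng per ul, a unit given by the labels that the arrays cannot check. FGF2 is a mitogen of neural stem cells, TGF-beta1 is a cytokine acting through Smad proteins, and every sample came from this single line. It is not stated if a group's replicates grew as separate cultures, so a p value measures the spread between these samples, which may be technical.

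During S phase the helicase opens the double helix, and polymerase alpha-primase lays a short RNA-DNA primer on each strand. The clamp loader then closes the ring-shaped clamp around the primed DNA, and polymerase epsilon on the leading strand or polymerase delta on the lagging strand extends it. On the lagging strand the flap nuclease cuts away the primer of the next Okazaki fragment and the ligase seals the nick. Genes of this machinery are transcribed mostly from late G1 into S phase, so their mRNA is low in cells that have left the cycle. In RNA from whole cultures, fewer cells that express a gene and less of its RNA in each cell cannot be told apart.

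Each array had a trimmed mean signal of 500 by the deposited scaling, and the median signal ran from 50.6 to 86.5. Precision is limited throughout by the small number of arrays. In each ethanol group the array labelled replicate 1 went against its growth factor label. Fn1, a matrix gene that separated the growth factors without ethanol, had signals of 6828 and 116 on the Ethanol and FGF2 arrays, against 120 and 139 on the FGF2 arrays. Its signals were 124 and 8226 on the Ethanol and TGF-beta1 arrays, against 3015 and 4109 on the TGF-beta1 arrays. All arrays were kept in their labelled groups, and results are also given without those 2 doubted arrays. Neural stem markers had 9 of 10 genes above the filter and a summed signal between 69330 and 123931 on all arrays, while 0 of 4 endothelial and 1 of 5 microglial markers were above it. Of the fibroblast and mesenchyme markers 4 of 5 were above it, with sums between 1198 and 2712. Of the oligodendrocyte markers 1 of 5 was above it. Summed astrocyte markers, 4 of 4 above the filter, lay between 16851 and 17706 with ethanol and FGF2, against 9363 to 13267 with FGF2, and between 15850 and 24619 with ethanol and TGF-beta1, against 11847 to 15347 with TGF-beta1. Neuronal markers, 4 of 6 above the filter, summed to 9066 to 11507 with ethanol and FGF2, against 8238 to 11329 with FGF2, and to 8809 to 13621 with ethanol and TGF-beta1, against 5502 to 6942 with TGF-beta1. Map2 gave most of each neuronal sum and Aqp4 most of each astrocyte sum. Gfap had 6058 and 1281 on the Ethanol and FGF2 arrays, against 534 and 61.9 with FGF2. It had 668 and 8284 on the Ethanol and TGF-beta1 arrays, against 2102 and 2461 with TGF-beta1. With ethanol, Gfap was high where Fn1 was high. Signals of S100b and Aldh1l1 overlapped between arrays with and without ethanol in both growth factors. For Gapdh the ratio of 3' to 5' probe signal, which rises as RNA degrades, was 3.33 and 3.48 on the Ethanol and FGF2 arrays, against 1.64 and 2.199 on the FGF2 arrays, and 1.93 and 2.06 on the Ethanol and TGF-beta1 arrays, against 1.70 and 2.204 on the TGF-beta1 arrays. The part of these markers and ratios in the results that follow was not tested.

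The first question was whether ethanol altered these transcripts when both growth factors were averaged. The 10 genes, and the lists set beside them later, were chosen with earlier results of these data known. Their counts are therefore descriptions and not an independent test. Of the 10 genes, 9 fell and 0 rose at an adjusted p of 0.05 in limma, where 1.80% of all tested genes fell and 0.183% rose. Pola2 did not pass. Pole is counted among the 9 but reached the filter on low signal through the arrays without ethanol. The median log2 fold change, with ethanol over without, was -1.38 over the 10 genes and 0.03 over all tested genes. The lowest value was -2.59 for Pole and the one nearest to 0 was -0.50 for Pola2. For 8 of the 10 genes the highest of the 4 ethanol arrays lay below the lowest of the 4 arrays without ethanol, which held for 4.45% of tested genes. Pola2 and Fen1 were the exceptions.

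**Figure D1:**
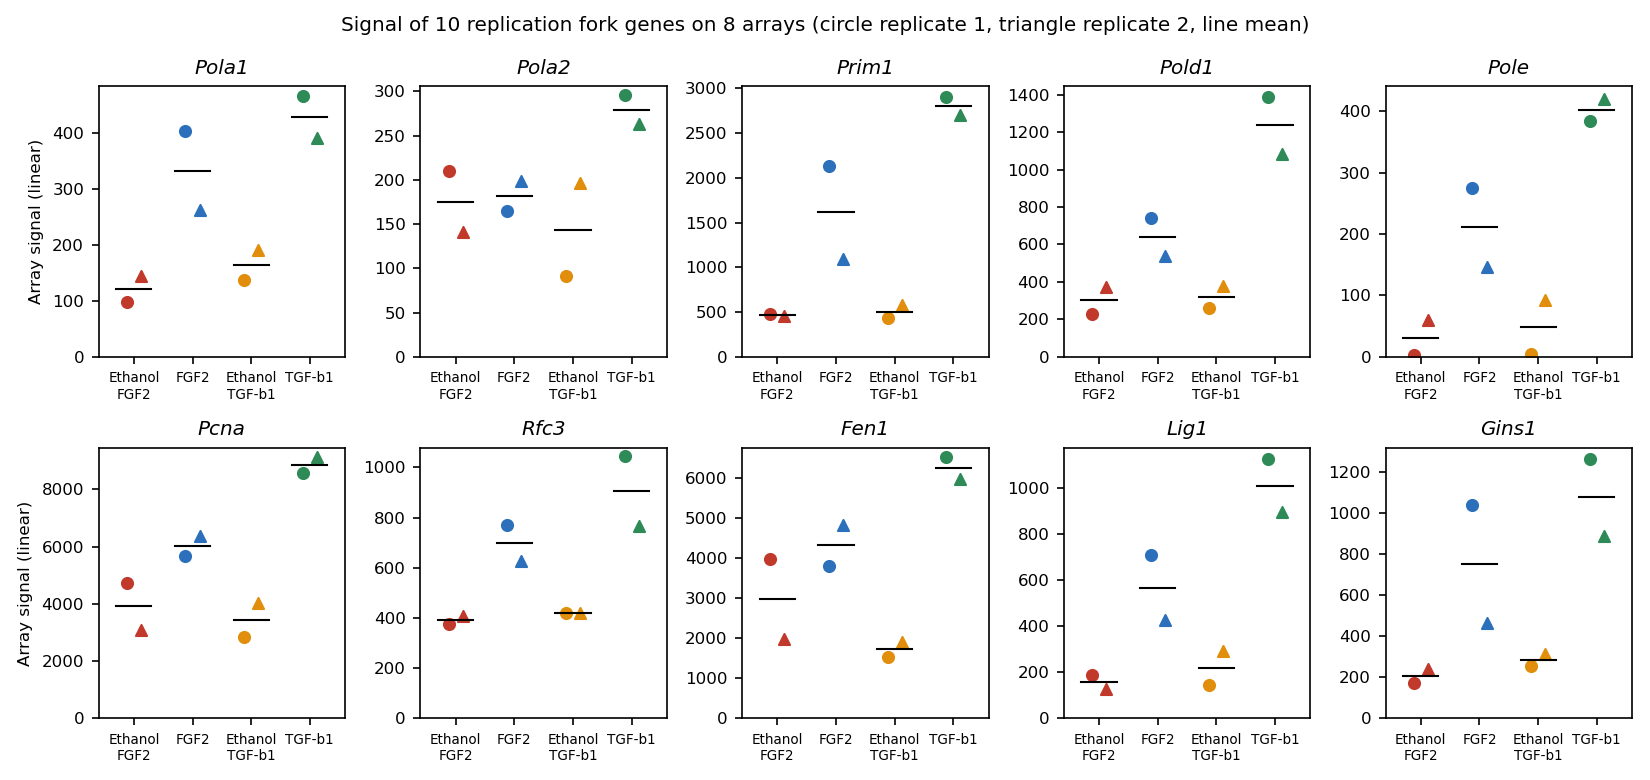
Array signal (linear scale, vertical axis from 0 in each panel) of the 10 fork genes in the 4 groups, with ethanol left of without ethanol for each growth factor. Circles are replicate 1, triangles replicate 2 and lines the means. The ethanol arrays lie lowest in 8 panels, while those of Pola2 and Fen1 overlap the arrays without ethanol.

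Polymerase alpha-primase starts each new DNA strand. Prim1, its catalytic primase subunit, had signals of 483 and 459 on the Ethanol and FGF2 arrays, against 2138 and 1093 on the FGF2 arrays. On the Ethanol and TGF-beta1 arrays they were 434 and 575, against 2904 and 2708 on the TGF-beta1 arrays. The 4 ethanol arrays were close to one another and far below the others, and the FGF2 arrays were the ones that differed most within their group. Prim1 fell 4.12-fold in the average, with a log2 fold change of -2.04 ± 0.23 (SE, limma, adjusted p = 0.00266), the lowest adjusted p of the 10 genes. A second Prim1 probe set kept the same separation of the 4 ethanol arrays from the rest and fell by 1.98 ± 0.31 on the log2 scale when each probe set was fitted as a feature of its own (SE, limma, adjusted p = 0.0124).

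Pola1, the catalytic polymerase subunit, had signals of 98.0 and 144 on the Ethanol and FGF2 arrays, against 404 and 262 on the FGF2 arrays. With TGF-beta1 the signals were 138 and 191 on the ethanol arrays, against 466 and 391.8 on the arrays without it. No ethanol array reached an array without ethanol, the nearest pair being 191 and 262. Pola1 fell 2.44-fold (log2 fold change -1.28 ± 0.25, SE, limma, adjusted p = 0.0321). Its other probe set was dim, below the signal filter with 5 of 8 arrays under the constant added before the logarithm, and had a log2 fold change of 0.34 ± 0.34 (SE, limma on all probe sets, adjusted p = 0.86). The mean of both Pola1 probe sets gave -0.47 and did not pass (adjusted p = 0.566).

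Pola2, the regulatory B subunit that is not itself a polymerase, had signals of 210 and 141 on the Ethanol and FGF2 arrays, against 165 and 199 on the FGF2 arrays. The Ethanol and TGF-beta1 arrays gave 91.2 and 196, against 296 and 263 on the TGF-beta1 arrays. In FGF2 the 2 groups overlapped completely, and in TGF-beta1 both ethanol arrays were below both arrays without it. The average log2 fold change was -0.50 ± 0.28 (SE, limma, adjusted p = 0.582), with a 95% interval from -1.12 to 0.13, so a fall of the size of those of Rfc3 or Pcna lies within it. Both other Pola2 probe sets were below the filter, with log2 fold changes of 0.68 and 0.005 on the scale with the constant.

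Promoter sequences of these 3 genes of the same complex are shown. Pola2 was not tested against the other 2, and the part of any motif in their ethanol differences was not tested. They are the 250 bases before the start site that the RefSeq promoter table uses for each gene, written 5' to 3' along the gene's strand, on GRCm38.p6. Positions are counted from that site. For Pola1 and Pola2 it lies inside the gene's span in the RefSeq gene table, so 232 and 32 of the 250 printed bases are within the span, and those of Prim1 are before it. Capitals mark matches on either strand to the E2F motif TTTNNCGC or to the CCAAT box.
Pola1 promoter (chrX:93632156-93632405, minus strand): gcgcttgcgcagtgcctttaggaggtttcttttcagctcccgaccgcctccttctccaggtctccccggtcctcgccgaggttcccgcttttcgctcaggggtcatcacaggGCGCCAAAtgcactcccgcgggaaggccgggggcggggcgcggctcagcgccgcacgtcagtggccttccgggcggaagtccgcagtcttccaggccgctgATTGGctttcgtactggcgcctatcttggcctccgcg
Prim1 promoter (chr10:128014965-128015214, plus strand): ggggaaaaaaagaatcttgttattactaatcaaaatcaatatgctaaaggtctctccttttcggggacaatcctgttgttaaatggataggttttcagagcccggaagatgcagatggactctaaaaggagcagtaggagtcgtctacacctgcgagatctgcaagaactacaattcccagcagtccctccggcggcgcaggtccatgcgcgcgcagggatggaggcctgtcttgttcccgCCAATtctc
Pola2 promoter (chr19:5964207-5964456, minus strand): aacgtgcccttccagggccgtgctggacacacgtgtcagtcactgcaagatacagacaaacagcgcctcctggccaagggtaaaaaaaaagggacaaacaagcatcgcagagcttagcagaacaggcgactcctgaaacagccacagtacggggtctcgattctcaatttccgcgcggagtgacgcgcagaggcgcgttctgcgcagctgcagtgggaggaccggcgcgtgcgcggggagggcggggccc
The Pola1 window held an E2F match beginning at base -138 and a CCAAT box at -37, both on the opposite strand, and the Prim1 window held a CCAAT box at -9 on the gene's own strand. In the Pola2 window none of the 3 motifs searched was found, the third being the CHR element TTTGAA. Pola1 lies at chrX:93304766-93632387, Prim1 at chr10:128015215-128030030 and Pola2 at chr19:5940543-5964238.

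The polymerases that extend primers both fell. Pold1, the catalytic subunit of polymerase delta (chr7:44532744-44548815), had signals of 230 and 372 on the Ethanol and FGF2 arrays, against 743 and 540 on the FGF2 arrays. On the Ethanol and TGF-beta1 arrays they were 262 and 376, against 1388 and 1085 on the TGF-beta1 arrays. The groups did not overlap in either growth factor. Pold1 fell 2.77-fold (log2 fold change -1.47 ± 0.23, SE, limma, adjusted p = 0.0126). This probe set is of the kind Affymetrix marks as able to bind related transcripts. The other Pold1 probe set was dimmer, with 20.0 and 83.7 on the Ethanol and FGF2 arrays, against 70.2 and 64.3 on the FGF2 arrays, and 11.7 and 51.2 on the Ethanol and TGF-beta1 arrays, against 245 and 145 on the TGF-beta1 arrays. There the 2 FGF2 groups overlapped, and the log2 fold change was -1.23 ± 0.39 (SE, limma, adjusted p = 0.254).

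Pole, the catalytic subunit of polymerase epsilon (chr5:110286319-110337468), had signals of 2.45 and 60.03 on the Ethanol and FGF2 arrays, against 275 and 147 on the FGF2 arrays. It had 3.87 and 92.0 on the Ethanol and TGF-beta1 arrays, against 384 and 421 on the TGF-beta1 arrays. In each ethanol group the very low array was the one labelled replicate 1, and both such values lay under the added constant of 23.7, so the size of the difference depends on that constant. Pole fell 6.03-fold (log2 fold change -2.59 ± 0.53, SE, limma, adjusted p = 0.0431), the largest estimate and the largest SE of the 10 genes. With a constant of 1 the log2 fold change was -4.02 and did not pass (adjusted p = 0.146), and with a constant of 100 it was -1.54. Without both ethanol arrays labelled replicate 1 it was -1.66. Pole reached the filter on low signal through the arrays without ethanol. With no filter it passed in limma (adjusted p = 0.0412).

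The clamp and its loader gave smaller differences. Pcna, the ring that holds polymerases on DNA (chr2:132249286-132253180), had signals of 4735 and 3093 on the Ethanol and FGF2 arrays, against 5690 and 6383 on the FGF2 arrays. The Ethanol and TGF-beta1 arrays gave 2850 and 4016, against 8560 and 9149 on the TGF-beta1 arrays. Every ethanol array was below every array without ethanol, by a narrow margin in FGF2 and a wide one in TGF-beta1. Pcna fell 2.02-fold (log2 fold change -1.02 ± 0.19, SE, limma, adjusted p = 0.0305).

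Rfc3, a subunit of the pentameric loader that opens the clamp (chr5:151642817-151651208), had signals of 377 and 407 on the Ethanol and FGF2 arrays, against 772 and 627 on the FGF2 arrays. They were 418 and 419 on the Ethanol and TGF-beta1 arrays, against 1046 and 765 on the TGF-beta1 arrays. The 4 ethanol arrays spanned a narrow band below all others. Rfc3 fell 1.90-fold (log2 fold change -0.92 ± 0.18, SE, limma, adjusted p = 0.0413), the smallest of the 9 falls. Its other probe set showed the same separation of arrays, with a log2 fold change of -1.11 ± 0.28 that did not pass when each probe set was fitted as a feature of its own (SE, limma, adjusted p = 0.119). The brighter Rfc3 probe set did not pass in that fit either (adjusted p = 0.0514).

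The windows before the starts of Pcna and Rfc3 are given in the same form, as the 2 genes whose products work as a pair.
Pcna promoter (chr2:132253181-132253430, minus strand): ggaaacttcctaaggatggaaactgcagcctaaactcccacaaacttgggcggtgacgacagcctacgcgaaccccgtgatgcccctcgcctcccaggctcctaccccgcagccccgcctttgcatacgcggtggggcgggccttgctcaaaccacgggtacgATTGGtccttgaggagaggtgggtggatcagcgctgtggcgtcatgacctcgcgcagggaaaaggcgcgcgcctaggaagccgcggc
Rfc3 promoter (chr5:151651209-151651458, minus strand): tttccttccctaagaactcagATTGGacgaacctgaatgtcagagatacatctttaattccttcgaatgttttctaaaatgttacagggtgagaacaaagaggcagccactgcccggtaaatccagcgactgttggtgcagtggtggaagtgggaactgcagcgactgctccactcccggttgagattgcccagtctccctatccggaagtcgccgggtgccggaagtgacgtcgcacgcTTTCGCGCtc
Both windows lie before the gene's span. Pcna had a CCAAT box at -87 and no E2F match of these letters. Rfc3 had a CCAAT box at -229 and an E2F match at -10, and another E2F match began at base 1 after the start, outside the printed bases, without overlapping the first. Over the 8 of 10 genes with a promoter in the RefSeq table, read from 250 bases before to 50 after each start site, the E2F motif was found for 4, Pola1, Rfc3, Lig1 and Pold1, and for 5.93% of all 27025 genes in that table. For Lig1 it was in 1 of 3 annotated promoters, at base 27, and for Pold1 at base 40. The CCAAT box was found for 4 of the 8 and for 41.1% of all genes, and TTTGAA for 1 of the 8, Fen1, and for 20.2% of all genes. Pole and Gins1 were not analysed for motifs here. These are matches of letters, not binding sites.

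Flap and nick processing completes the lagging strand. Lig1, which joins Okazaki fragments (chr7:13277175-13311426), had signals of 190 and 127 on the Ethanol and FGF2 arrays, against 709 and 426 on the FGF2 arrays. It had 145 and 291 on the Ethanol and TGF-beta1 arrays, against 1126 and 895 on the TGF-beta1 arrays. The highest ethanol array, at 291, lay below the lowest array without ethanol, at 426. Lig1 fell 3.78-fold (log2 fold change -1.92 ± 0.28, SE, limma, adjusted p = 0.00788).

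Fen1, which removes the displaced primer flap (chr19:10199132-10204393), had signals of 3982 and 1994 on the Ethanol and FGF2 arrays, against 3814 and 4838 on the FGF2 arrays. The Ethanol and TGF-beta1 arrays gave 1526 and 1914, against 6515 and 5987 on the TGF-beta1 arrays. Only 1 ethanol array, replicate 1 of Ethanol and FGF2 by its label, lay above an array without ethanol. Fen1 fell 2.34-fold in the average (log2 fold change -1.23 ± 0.23, SE, limma, adjusted p = 0.028). This probe set, like that of Pold1, is of the kind marked for related transcripts. A second Fen1 probe set, not so marked, had 250 and 207 on the Ethanol and FGF2 arrays, against 521 and 458 on the FGF2 arrays, and 242 and 293 on the Ethanol and TGF-beta1 arrays, against 907 and 534 on the TGF-beta1 arrays. On it all ethanol arrays were below all others, and it fell by 1.17 ± 0.23 on the log2 scale (SE, limma, adjusted p = 0.0362).

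Gins1, a subunit of the GINS complex that binds the MCM ring and Cdc45 in the active helicase (chr2:150909556-150931280), had signals of 171 and 240 on the Ethanol and FGF2 arrays, against 1040 and 465 on the FGF2 arrays. They were 255 and 314 on the Ethanol and TGF-beta1 arrays, against 1267 and 892 on the TGF-beta1 arrays. The FGF2 arrays differed by more than any other pair of Gins1 replicates, yet both were above every ethanol array. Gins1 fell 3.35-fold (log2 fold change -1.75 ± 0.28, SE, limma, adjusted p = 0.0135). Its dim second probe set had a log2 fold change of -0.66 ± 0.43 (SE, limma, adjusted p = 0.654), and the mean of both gave -1.20, which did not pass (adjusted p = 0.0898).

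**Figure D2:**
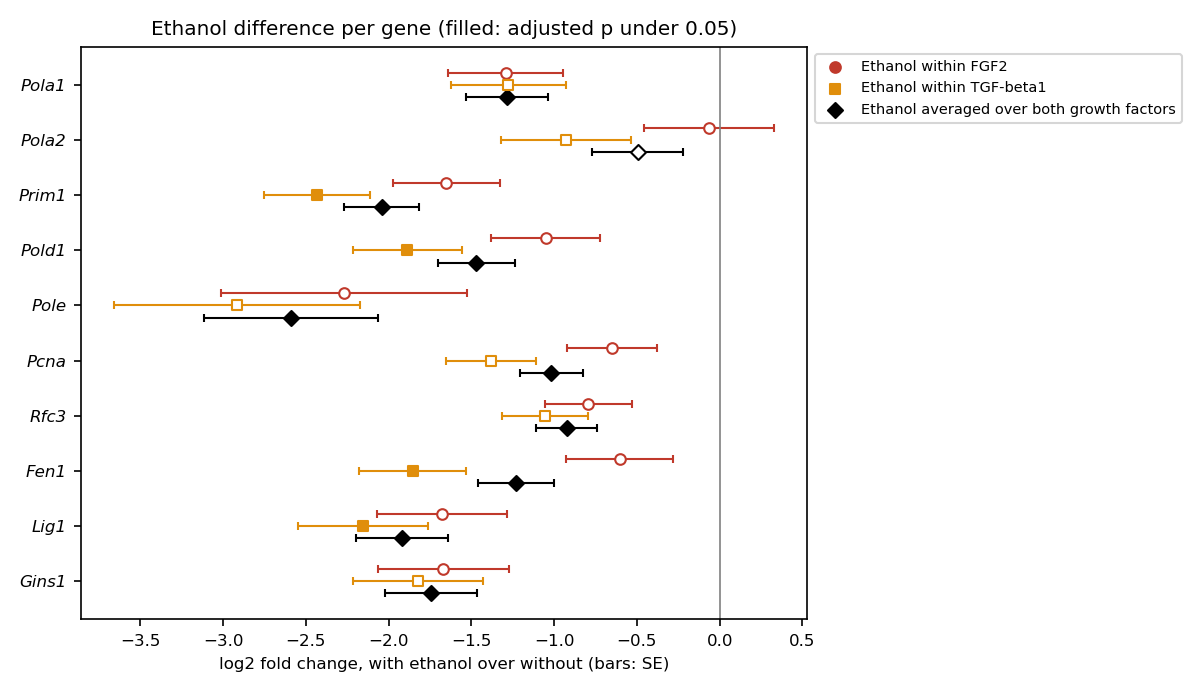
Log2 fold change of each gene, with ethanol over without (horizontal axis), within FGF2 (circles), within TGF-beta1 (squares) and averaged (diamonds), with bars of 1 SE and filled symbols for an adjusted p under 0.05. All 10 averages lie below 0 and 9 are filled, 4 squares are filled and 0 circles.

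Within FGF2 alone, 0 of the 10 genes passed in limma, where 0 of all tested genes did, and 8 had an unadjusted p under 0.05, as did 4.26% of tested genes in the lower direction. For 8 of 10 genes both Ethanol and FGF2 arrays were below both FGF2 arrays, which held for 12.8% of tested genes. The estimates of all 10 were below 0, as were those of 44.5% of tested genes. The median of the 10 was -1.17, against 0.05 over all tested genes. Pole had the lowest at -2.27 ± 0.74, followed by Lig1 at -1.68 ± 0.39, Gins1 at -1.67 ± 0.39 and Prim1 at -1.65 ± 0.32 (SE), the last with the smallest adjusted p of the 10 (0.0959). Pola2 was at -0.06 ± 0.39 and changed sign when single arrays were left out, being -0.32 without replicate 1 of the group labelled Ethanol and FGF2 and 0.19 without its replicate 2. Without FGF2 replicate 2, 2 members and 77 of the 10916 tested genes passed.

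Within TGF-beta1, 4 of the 10 genes fell in limma, where 1.12% of tested genes fell and 0.0733% rose. Prim1 fell 5.40-fold (log2 fold change -2.43 ± 0.32, adjusted p = 0.0195), and Pold1 fell 3.70-fold (-1.89 ± 0.33, adjusted p = 0.0346). Fen1 fell 3.62-fold (-1.86 ± 0.32, adjusted p = 0.0356) and Lig1 4.46-fold (-2.16 ± 0.39, adjusted p = 0.0418; SE in each case). Pcna, at -1.38 ± 0.27, did not pass (SE, adjusted p = 0.0542), and all 10 had an unadjusted p under 0.05, against 6.03% of tested genes in the lower direction. For 10 of 10 genes both Ethanol and TGF-beta1 arrays were below both TGF-beta1 arrays, which held for 25.7% of tested genes. Of the 4 calls 0 were left when the array labelled replicate 1 of Ethanol and TGF-beta1, or either TGF-beta1 array, was left out, as were 0 calls of all tested genes. With replicate 2 of Ethanol and TGF-beta1 left out, 2 members and 65 of all tested genes passed.

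Whether the ethanol difference depended on the growth factor was tested by the interaction. In limma 0 of all tested genes passed, 484 had an unadjusted p under 0.05, and the smallest adjusted p was 0.831. The median of the 10 genes was -0.69, against -0.07 over all tested genes, and 9 of the 10 lay below 0, as did 55.1% of tested genes. Fen1 was the 1 member with an unadjusted p under 0.05, which 2.73% of tested genes had in the lower direction, at -1.25 ± 0.46 (SE, limma, adjusted p = 0.831), which compares a log2 fold change of -1.86 within TGF-beta1 with -0.60 within FGF2. Both within-factor estimates rest on the ethanol arrays whose Fn1 signal went against the label.

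Between the growth factors themselves 0 of the 10 genes passed in limma with all 8 arrays in the fit, as did 0 of all tested genes. The spread in that fit includes the ethanol groups, whose replicates differed in Fn1. With only the 4 arrays without ethanol in the fit, 5 of all tested genes and 0 of the 10 passed. Without ethanol all 10 had estimates above 0 for TGF-beta1 over FGF2, as did 52.5% of tested genes. Those of the 10 lay between 0.35 for Rfc3 and 0.93 for Pold1, with a median of 0.58, against 0.02 over all tested genes. An unadjusted p under 0.05 was found for 2, Prim1 and Pold1, and for 3.22% of tested genes in the higher direction. For 7 of 10 both TGF-beta1 arrays were above both FGF2 arrays, which held for 20.4% of tested genes. With ethanol the median was 0.09, with 7 of the 10 genes above 0, where 45.6% of tested genes were. Of the 10 genes 0 had an unadjusted p under 0.05, while 1.04% of tested genes did in the higher direction. In order of mean signal, TGF-beta1 was highest and FGF2 second for each of the 10 genes, with the 2 ethanol groups below them. For these 10 genes the neighbours TGF-beta1 and FGF2, and the 2 ethanol groups, were thus not shown to differ beyond their spread. The arrays of each ethanol group differed in Fn1 much as the growth factors did without ethanol. If those labels are crossed, the comparison with ethanol would miss a growth factor difference, which was not tested. These comparisons share arrays with the ethanol comparisons and add no independent samples.

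**Figure D3:**
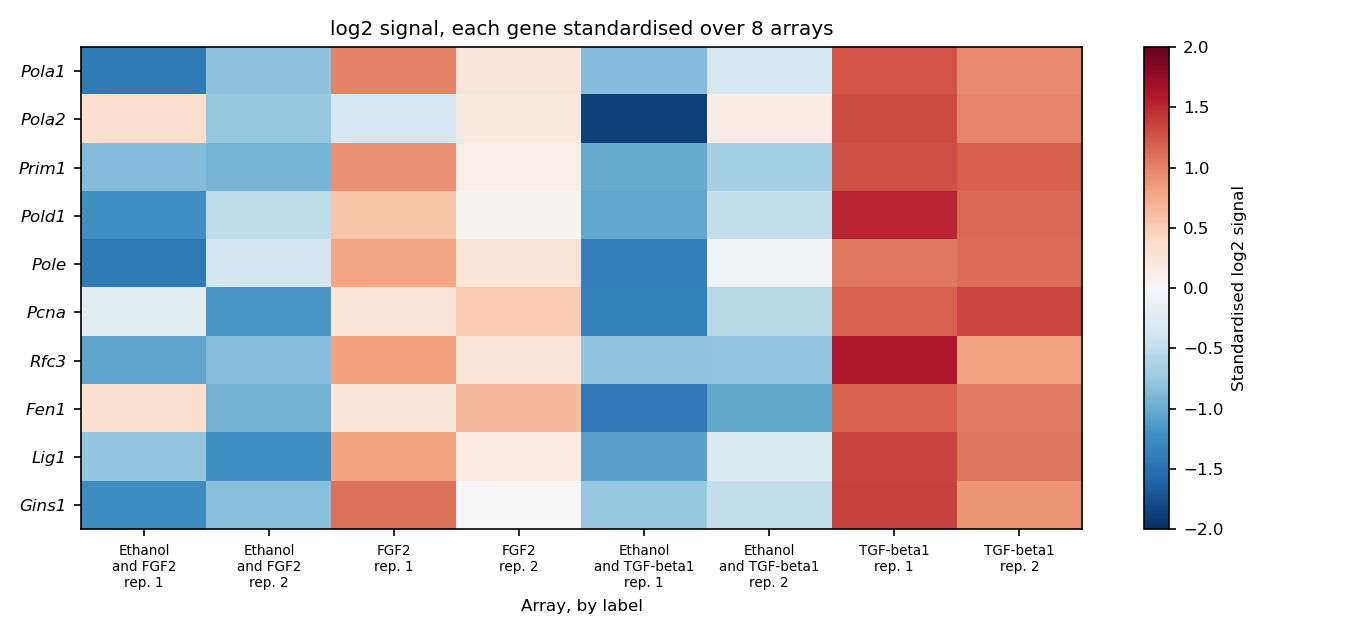
Log2 signal of each gene on each array, standardised over the 8 arrays (colour, from -2 in blue to 2 in red; columns are arrays by label, rows are genes). The TGF-beta1 columns are the reddest, and Pola2 and Fen1 are above their own mean in the first column.

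The 10 genes moved together across arrays. Over the 8 arrays the log2 signals of the 45 pairs had Pearson correlations between 0.55 and 0.99, with a median of 0.90. The 9 pairs with Pola2 had a median of 0.68, against 0.93 for the 36 pairs without it. The highest, 0.99, was between Pola1 and Gins1. All pairs share the same 8 arrays, their scaling and the difference between groups, so these values are descriptions only. The mean standardised log2 signal of the 10 genes was -0.76 and -0.84 on the Ethanol and FGF2 arrays, against 0.60 and 0.24 on the FGF2 arrays. It was -1.15 and -0.46 on the Ethanol and TGF-beta1 arrays, against 1.31 and 1.05 on the TGF-beta1 arrays. The 2 ethanol groups overlapped on this scale, and the TGF-beta1 arrays were highest.

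Outside the Ethanol and FGF2 group, replicates of a group also differed in a direction shared by most members. All 10 genes were lower on Ethanol and TGF-beta1 replicate 1 than on replicate 2, by a median of 0.45 log2 units, while 49.4% of tested genes were higher on replicate 1. In the FGF2 group 7 of 10 were higher on replicate 1, with a median difference of 0.51, while 51.0% of tested genes were. In the TGF-beta1 group 8 of 10 were higher on replicate 1, with a median difference of 0.20, while 48.6% of tested genes were lower on replicate 2. In the Ethanol and FGF2 group 5 of 10 were higher on replicate 1, while 52.1% of tested genes were. The median difference over all tested genes was within 0.03 in each group.

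By Pearson correlation with that mean profile over the 8 arrays, the nearest of the other tested genes were Wee1, a kinase that holds back Cdk1 (0.99), Dnajc9, a J-domain histone chaperone (0.99), Dscc1, a subunit of an alternative clamp loader (0.99), Cdc45, a helicase cofactor (0.99), and Mcm3, a subunit of the helicase ring (0.99). The most opposite were Celf4, an RNA-binding protein of neurons (-0.97), Shroom2, an actin-binding protein (-0.97), and Rgs8, a regulator of G protein signalling (-0.97). These genes are the extremes among all other tested genes, over 8 arrays that include the difference between groups. Their values are likewise descriptions only.

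Calls of single members depended on single arrays. With 1 array left out at a time, Prim1 passed in 8 of 8 fits and Lig1 in 7. Pold1 and Gins1 passed in 5 each, Pole, Pcna and Fen1 in 2 each, Pola1 in 1, and Rfc3 and Pola2 in 0. Of all tested genes 0.889% fell with all arrays and in all 8 of these fits. Without Ethanol and FGF2 replicate 1, 5 members and 166 of all tested genes passed, and without its replicate 2, 6 members and 173 genes did. Without FGF2 replicate 1, 3 members and 155 genes passed, and without FGF2 replicate 2, 5 members and 233 genes did. Removal of replicate 1 of Ethanol and TGF-beta1 left 2 members and 128 genes, and removal of its replicate 2 left 6 members and 165 genes. Removal of TGF-beta1 replicate 1 left 1 member and 101 genes, and removal of TGF-beta1 replicate 2 left 4 members and 148 genes, where 217 genes passed with all arrays. Over these fits the log2 fold change of Prim1 ran from -2.28 to -1.80 and that of Rfc3 from -1.03 to -0.81. With all arrays kept, Rfc3 did not pass with no filter on low signal (adjusted p = 0.0549), with a filter at the 60th percentile (0.0572) or without the trend (0.0522). Pola1 did not pass with no filter (adjusted p = 0.0553), and Pold1 did not with the mean of its probe sets (adjusted p = 0.0502). Without the trend Pole, Pcna and Fen1 did not pass either (adjusted p = 0.0575, 0.0656 and 0.0596). Without both ethanol arrays labelled replicate 1, limma called 0 of the 10 genes and 0 of all tested genes, while 9 members and 1139 of all tested genes had an unadjusted p under 0.05. In that fit the smallest adjusted p of a member was 0.066, and the median log2 fold change of the 10 was -1.29.

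**Figure D4:**
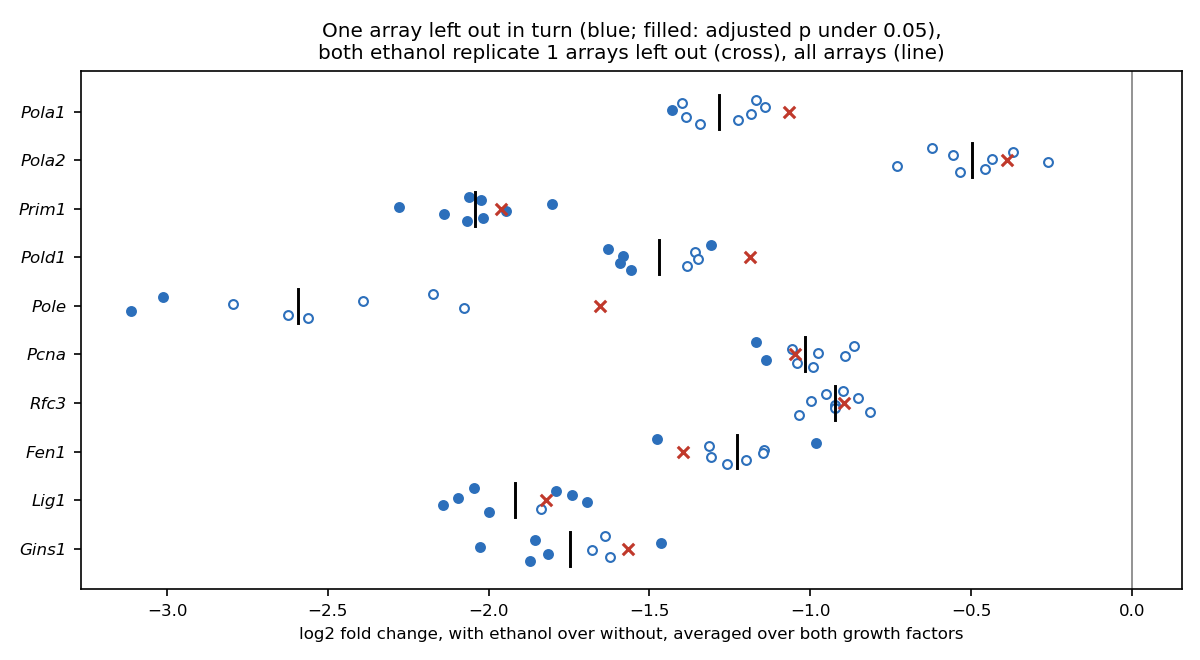
Log2 fold change of each gene with ethanol over without, averaged over both growth factors (horizontal axis), with each array left out in turn (blue, filled for an adjusted p under 0.05), with both ethanol arrays labelled replicate 1 left out (cross) and with all arrays (line). Every point lies below 0, all 8 points of Prim1 are filled and 0 of Rfc3 and Pola2.

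Other subunits of the same complexes were set beside the 10 genes. Of these 15 genes 4 fell and 0 rose in the average, where 1.80% of all tested genes fell and 0.183% rose. Their median log2 fold change was -0.79. Of the 15 genes 14 were below 0, as were 46% of tested genes. The 4 were Cdc45, which joins GINS in the helicase (-1.67 ± 0.30, adjusted p = 0.0246), Gins2 (-1.49 ± 0.26, adjusted p = 0.0192), Gins3 (-1.44 ± 0.24, adjusted p = 0.016) and the clamp loader subunit Rfc5 (-1.21 ± 0.24, adjusted p = 0.0413; limma, SE). Cdc45 reached the filter on low signal through the arrays without ethanol. Nearest to 0 were the small polymerase delta subunit Pold4, at 0.06 ± 0.33, and Pole3, a histone-fold subunit of polymerase epsilon, at -0.21 ± 0.19 (SE). Gins4 had -0.36, Pole4 -0.40, Pold3 -0.45 and the large clamp loader subunit Rfc1 -0.45, with adjusted p between 0.316 and 0.586. The count of 4 was 5 without FGF2 replicate 2, 1 without Ethanol and FGF2 replicate 1, and 2 without its replicate 2, without Ethanol and TGF-beta1 replicate 2 or without TGF-beta1 replicate 2. It was 0 without FGF2 replicate 1, without replicate 1 of Ethanol and TGF-beta1, without TGF-beta1 replicate 1 or without both doubted arrays.

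Of 21 other fork factors on the array 12 fell and 0 rose, with a median of -1.27, where 1.80% of all tested genes fell and 0.183% rose. Of the 21 genes 19 were below 0, as were 46% of tested genes. The largest falls were of Top2a, the topoisomerase that untangles sister DNA (-3.01 ± 0.30, adjusted p = 0.00247), Pclaf, a small protein that binds the Pcna ring (-2.83 ± 0.30, adjusted p = 0.00258), and Clspn, an adaptor of the replication checkpoint (-2.51 ± 0.27, adjusted p = 0.00258; limma, SE). Dscc1 (-2.22), the initiation factor Mcm10 (-1.73), the chromatin assembly subunit Chaf1b (-1.70), Wdhd1, which ties polymerase alpha to the helicase (-1.63), and Chtf18 of the alternative clamp loader (-1.61) also fell. Mcm10, Chaf1b and Chtf18 reached the filter on low signal through the arrays without ethanol. Not passing and nearest to 0 were Chtf8 (0.10), Top1 (0.16), Rnaseh2b (-0.40), Rpa3, Rnaseh2c (both -0.49) and Rnaseh2a (-0.50), 3 of them subunits of the enzyme that removes RNA from DNA. The count of 12 was 5 without FGF2 replicate 1, 5 without Ethanol and TGF-beta1 replicate 1, 7 without Ethanol and TGF-beta1 replicate 2, 4 without TGF-beta1 replicate 1, 6 without TGF-beta1 replicate 2, and 0 without both doubted arrays. It was 9 and 8 without replicate 1 and replicate 2 of Ethanol and FGF2, and 11 without FGF2 replicate 2.

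Polymerases with other work gave no calls with all arrays, and for each list the 6 genes nearest to 0 are named, as the naming rule picks them. In limma 0 of 13 repair and translesion polymerases, ligases and partners passed (1 with an unadjusted p under 0.05), with a median of -0.10 and a range from -1.49 to 0.23. The lowest was Polh, a translesion polymerase, at -1.49 ± 0.38 (SE, limma, adjusted p = 0.108), named after its value was seen, and without Ethanol and FGF2 replicate 2, 1 gene of this list passed. Nearest to 0, Polb, Polk, Rev1, Poli, Lig3 and Lig4 had log2 fold changes between -0.11 and 0.07. Of 9 genes of mitochondrial DNA replication 0 passed (1 with an unadjusted p under 0.05), with a median of -0.13 and a range from -0.70 for Primpol to 0.47 for Top1mt, both named after their values were seen. Nearest to 0, Polg2, Twnk, Ssbp1, Tfam, Polrmt and Mgme1 lay between -0.31 and 0.19. Of 10 core subunits of RNA polymerase II 0 passed and 0 had an unadjusted p under 0.05, with a median of -0.11 and a range from -0.48 to 0.31. Nearest to 0, Polr2a, Polr2b, Polr2c, Polr2d, Polr2e and Polr2g lay between -0.16 and 0.02. Lig3, the ligase of base excision repair and mitochondria, had -0.08 ± 0.19 (SE), against -1.92 for the replicative ligase Lig1, each from its own fit and with no test between them.

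**Figure D5:**
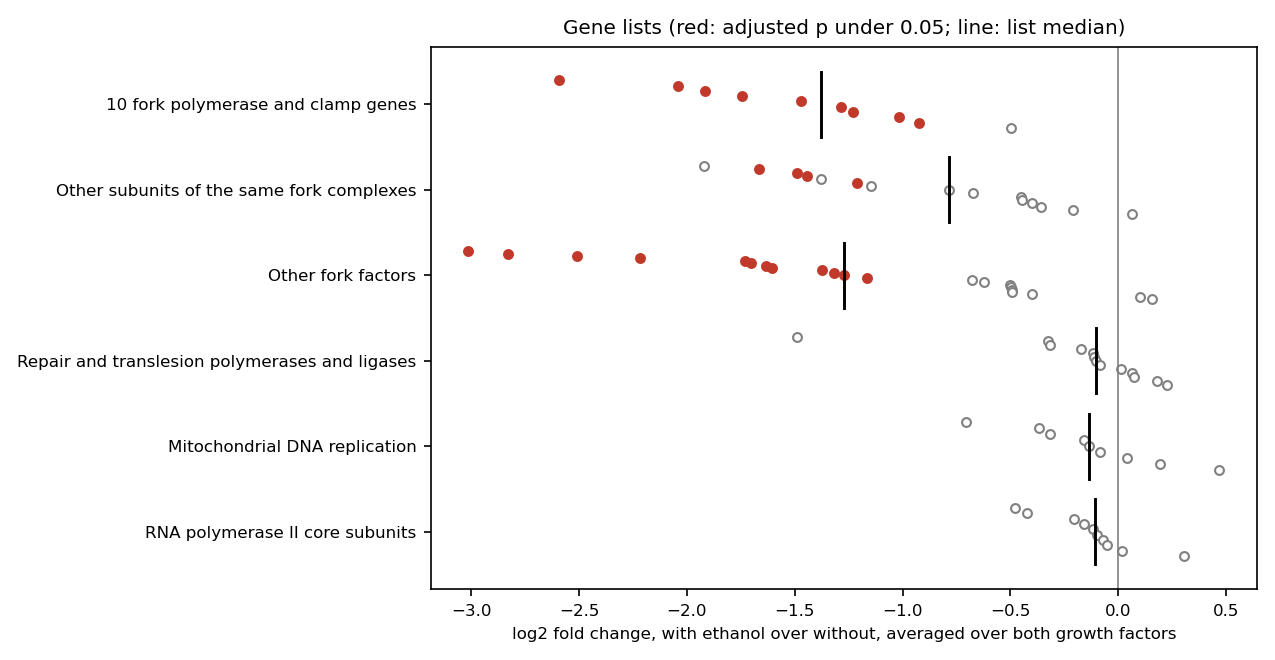
Log2 fold change with ethanol over without, averaged over both growth factors (horizontal axis), of the 10 genes and of 5 other lists (rows), with red points for an adjusted p under 0.05 and a line at each list's median. Red points number 9 in the first row, 4 in the second, 12 in the third and 0 in the others.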

How the data were processed

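The labels describe 8 arrays of total RNA, 1 per sample. Per the submitters' processing notes the authors used MAS5 and GCOS to make the deposited values, linear intensity with 1 value for a probe set on an array; versions are not given in the sources used here. The 2% trimmed mean was 500 on every array, there were no detection calls, and no further normalization was applied. Of 45101 probe sets, 34945 carried exactly 1 gene symbol in the platform annotation, and 64 controls were left out. The brightest probe set by mean log2 signal stood for its gene. To each signal 23.7, the 25th percentile of the whole table, was added before log2, so fold changes understate those of dim genes. Genes whose mean log2 signal reached the 40th percentile (6.40) entered limma 3.58.1 (R 4.3.3) with 4 group means, 4 residual and 4.93 prior degrees of freedom and a mean-variance trend. Two-sided p values were adjusted with the Benjamini-Hochberg method over the tested genes within each of 6 comparisons, at a threshold of 0.05. The script was tested on simulated data. Alternatives covered the constant, the filter, normalization, the probe set rule, the trend, a block for replicate number, only the compared arrays in the fit, and each array left out.

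The 10 genes and all lists were chosen with earlier results of these data known. By the naming rule all 10 genes are named. From each other list up to 8 called genes with the largest and up to 6 others with the smallest ethanol difference are named, with the 5 and 3 genes most and least like the mean profile. Of the listed fork factors Ssrp1, Supt16h and Chaf1a were not analysed here, and neither was a planned search of protein sequences. Positions and promoters are from RefSeq on GRCm38.p6.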

Additional observations from a re-analysis of the deposited data

How the results depend on the processing

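Over all alternatives, 685 of the values for single genes kept their direction and side of the threshold, 95 no longer passed, 11 newly passed and 2 changed sign. The sign changes were of Pola2 within FGF2, which ran from -0.32 to 0.19 with 1 array left out at a time. Where a count moved, the cause was not tested beyond the alternative's own construction.

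For ethanol averaged over both growth factors the 217 genes called were 119 with the filter at the 60th percentile, 101 to 233 with 1 array left out (101 without TGF-beta1 replicate 1, 128 without replicate 1 of Ethanol and TGF-beta1) and 0 without both doubted arrays, the ethanol arrays labelled replicate 1. The 9 members called were 5 without the trend, 4 with the replicate block, 1 to 6 with 1 array left out and 0 without both doubted arrays. With the replicate block Pola1, Pole, Pcna, Rfc3 and Fen1 no longer passed (adjusted p between 0.0587 and 0.0717).

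Within FGF2 the 0 genes called were 29 with no filter, 3 with the filter at the 60th percentile, 29 with quantile normalization, 56 with median centring and 0 to 77 with 1 array left out (77 without FGF2 replicate 2), and the 0 members called were 0 to 2 with 1 array left out.

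Within TGF-beta1 the 130 genes called were 75 with the filter at the 60th percentile, 85 with the mean of all probe sets, 78 without the trend, 0 with the replicate block, 0 to 162 with 1 array left out and 0 without both doubted arrays. The 4 members called were 1 without the trend, 0 with the replicate block, 0 to 5 with 1 array left out and 0 without both doubted arrays.

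For TGF-beta1 against FGF2 without ethanol the 0 genes called were 5 without both doubted arrays and 5 with only the compared arrays in the fit, and with ethanol 2 without both doubted arrays. The interaction gave 0 calls under every alternative run.

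The labels tie equal replicate numbers to no shared source. Without ethanol, the median signal was 50.7 and 50.6 on replicate 1 of FGF2 and TGF-beta1, and 86.5 and 80.7 on replicate 2. The Gapdh ratios were 1.64 and 1.70 on replicate 1, and 2.199 and 2.204 on replicate 2. With ethanol, the median signals were 83.3 and 70.8 on replicate 1, and 65.0 and 78.0 on replicate 2. Whether equal numbers mark arrays handled together was not tested. Deviations of replicates from their group means correlated at -0.08 between Ethanol and FGF2 and FGF2, at 0.05 between Ethanol and TGF-beta1 and TGF-beta1, and at 0.47 between TGF-beta1 and FGF2, where the replicate block gave 0 calls. Between the 2 ethanol groups they correlated at -0.44, and crossing their numbers as a block, an alternative chosen after seeing the data, gave 0 calls. With 2 arrays in a group, and 1 left where an array was removed, the spread comes from all groups together, and dim probe sets such as those of Pole have values under the added constant.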
